A study of Homo sapiens with 6 samples.

Results

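The 34 genes described here are transcriptional targets of the tumour suppressor p53 and close regulators of it, taken by symbol from the deposited table of 56303 rows. All 34 were found, and all 34 were among the 20465 genes with enough counts to be tested. RNA of A549, an established human lung adenocarcinoma line, was sequenced in 2 groups of 3 libraries. The groups received negative-control siRNA or siRNA to HNRNPD. The HNRNPD product, AUF1, binds AU-rich stretches of mRNA. Sources used here give no siRNA sequence, dose or time after transfection and do not say whether replicates were separate cultures. The p-values therefore describe the spread among libraries, and that spread may be technical.

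p53 is a transcription factor that is held low by its own target MDM2, a ubiquitin ligase, helped by the related protein MDM4. When DNA is damaged or cells are stressed, p53 accumulates and raises genes that halt the cell cycle, repair DNA, adjust metabolism and redox state, or promote cell death, and some of these genes feed back on p53 itself. A549 is known to have lost CDKN2A, the gene of the MDM2 inhibitor ARF. p53 binds DNA as a tetramer at a pair of p53 consensus half-sites, which may be adjacent or separated by a short spacer. RNA levels were measured in bulk, so fewer cells of a type and less RNA per cell cannot be told apart, and p53 protein was not measured.

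The libraries held 37151094 to 43005090 counts. HNRNPD itself measured 942.2 to 965.4 CPM (counts scaled to library size, with TMM factors) in the control libraries and 162.7 to 177 CPM in the HNRNPD siRNA libraries. The targeted gene was thus low in each library labelled for it. Of 6 epithelial markers, KRT8, KRT18, KRT7 and KRT19 were lower, EPCAM was higher and CDH1 was not called. Of 6 lung lineage markers, SFTPA1 had 0 counts in every library, NKX2-1 had 0 to 2, and SFTPB, SFTPC and SFTPD had 1 to 19. NAPSA, with 27 to 57 counts, was the only one tested and was called higher (log2 fold change 0.75, edgeR adjusted p = 0.0206). Summed levels of 6 blood cell markers were 1.93 to 2.98 CPM in the controls and 0.52 to 1.00 CPM after HNRNPD siRNA, with PTPRC, CD3E and LYZ at 0 to 2 counts and HBB at 0. Most of that sum was CD14, at 72, 80 and 111 counts in the controls and 10, 28 and 24 counts after HNRNPD siRNA, a 3.95-fold fall (edgeR adjusted p = 1.56e-05). Summed levels of 8 fibroblast and endothelial markers were 5.20 to 6.27 and 6.97 to 8.36 CPM, with CDH5, DCN and COL1A2 at 0 to 4 counts. Most of this sum was COL1A1, at 190 to 282 counts per library, which was called higher (log2 fold change 0.37, edgeR adjusted p = 0.0184). A count of 0 allows up to 3 counts, or 0.07 to 0.0825 CPM, counting error only. Of 12 interferon-stimulated genes, a list chosen with earlier results of these data known, 12 were called higher, against 28.4% of all tested genes. Their median level was 1.34 to 2.15 CPM in the controls. In HNRNPD siRNA replicates 1, 2 and 3 it was 190.2, 150.3 and 225.3 CPM. The part of the marker and interferon levels in the results below was not tested.

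Of the 34 p53 pathway and target genes, 14 rose, 9 fell and 11 were not called by edgeR's quasi-likelihood test at an adjusted p under 0.05. These shares, 41.2% higher and 26.5% lower, stand against 28.4% and 27.8% of all tested genes. Together, 67.6% of the 34 were called, against 56.1% of all tested genes and 66.7% of the 9675 protein-coding genes whose mean level lay in the range of the 34, from 3.37 to 196 CPM. In that level-matched set 29.9% were higher and 36.8% lower. The share of the 34 that changed was therefore near the background of genes of like level. On the log2 scale the median change of the 34 was 0.16 (quartiles -0.26 and 0.57), against -0.05 (quartiles -0.38 and 0.29) in the level-matched set. Without HNRNPD siRNA replicate 3 the median of the 34 was 0.064, with 14 higher and 10 lower.

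The 5 rises of at least 2-fold were those of BTG2, SPATA18, XPC, AEN and FDXR, and the 2 falls of that size were those of TP53I11 and SESN3. Rises of this size were called in 10.2% of all tested genes and falls in 6.09%, and in the level-matched set in 5.56% and 4.54%. In 26 of the 34 genes the groups did not overlap, 16 with every HNRNPD siRNA library above the controls and 10 below, while 62.6% of all tested genes (31.7% above, 30.9% below) and 72.1% of the level-matched set (32.3% above, 39.8% below) had no overlap. The plot of levels by library shows these genes by function.

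**Figure D1:**
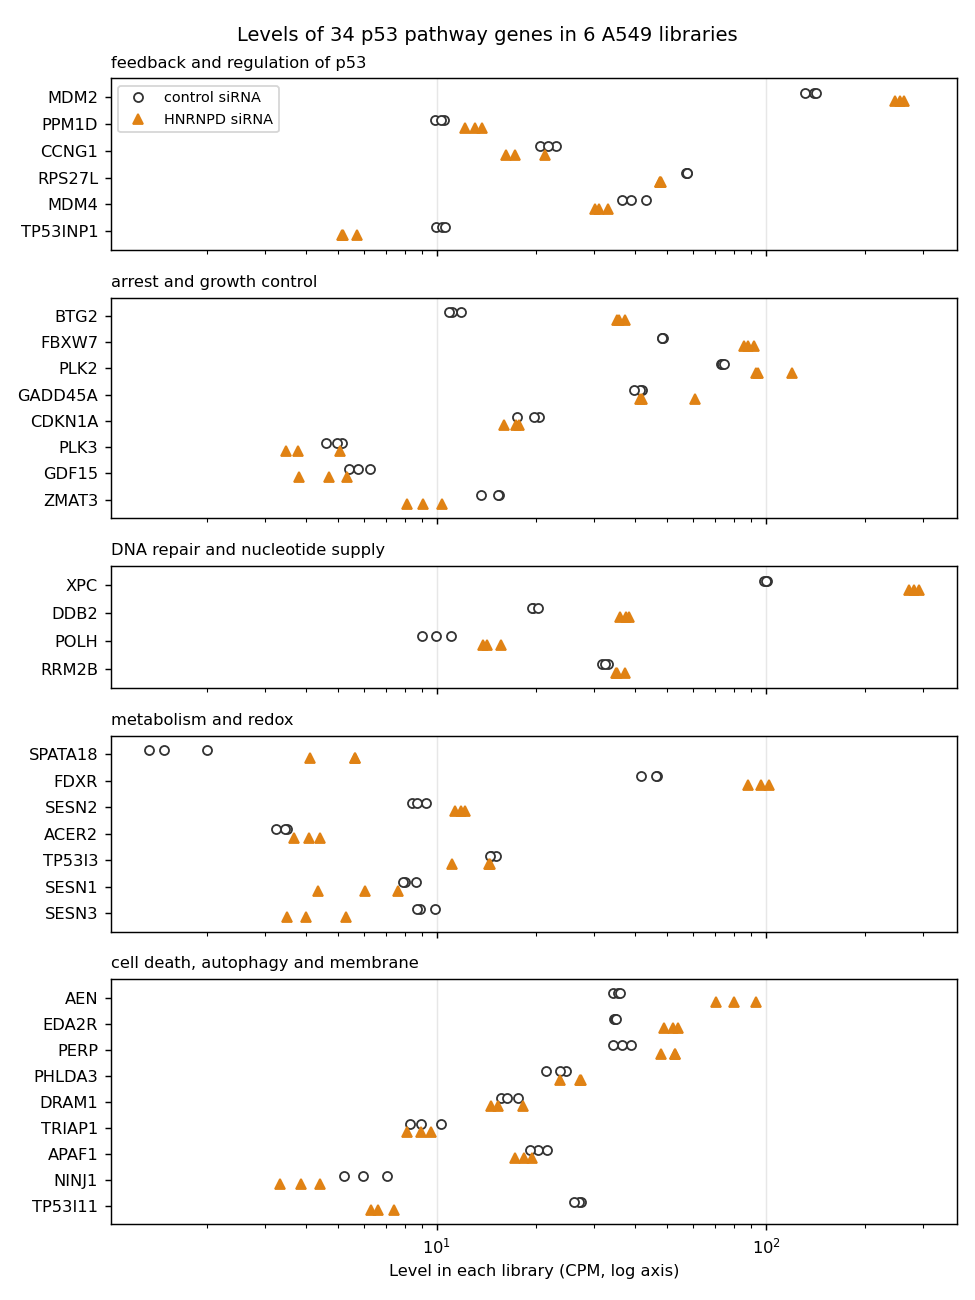
Level of each of the 34 p53 pathway genes in each library (CPM, log axis), by function; open circles are the 3 control libraries and filled triangles the 3 HNRNPD siRNA libraries. XPC, BTG2 and SPATA18 sit clearly to the right of their controls and TP53I11 to the left, while CDKN1A, DRAM1 and TRIAP1 overlap.

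The genes that feed back on p53 changed in both directions. Of 6 such genes, MDM2 and PPM1D rose, and MDM4, CCNG1, RPS27L and TP53INP1 fell. That was 33.3% higher and 66.7% lower, where 28.4% and 27.8% of all tested genes were so called. MDM2, the main ubiquitin ligase of p53 (chromosome 12, 68808176 to 68850686, plus strand, GRCh38), measured 131.1, 139.2 and 141.1 CPM in the controls, given in the order of replicates here and throughout, and 255.1, 246.1 and 262.3 CPM after HNRNPD siRNA. All 3 HNRNPD siRNA libraries lay far above the controls. The means were 137 ± 5.33 and 254 ± 8.13 CPM (SD, n = 3), a 1.86-fold rise (log2 fold change 0.89, SE 0.06, edgeR adjusted p = 3.47e-10). Other genes overlap a fraction of 0.092 of its exonic bases.

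An internal promoter of MDM2 is known to respond to p53, so the 250 bases upstream of that start are shown from RefSeq (GRCh38.p14, chr12:68808767-68809016, plus strand). The best pair of p53 half-sites that a search found in this window is in capitals. It begins 94 bases before the start, has no spacer, and differs from the consensus at 2 of its bases.
MDM2 internal promoter: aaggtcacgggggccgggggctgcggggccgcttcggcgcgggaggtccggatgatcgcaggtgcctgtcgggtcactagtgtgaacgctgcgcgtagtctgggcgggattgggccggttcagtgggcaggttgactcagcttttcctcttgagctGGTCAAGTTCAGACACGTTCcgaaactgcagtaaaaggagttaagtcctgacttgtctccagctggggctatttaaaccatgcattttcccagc

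MDM4, an MDM2 relative that binds and inhibits p53, moved the other way, from 39.4 ± 3.42 to 31.5 ± 1.41 CPM (SD, n = 3; log2 fold change -0.33, SE 0.07, edgeR adjusted p = 0.00101). Per 1000 exonic bases, the MDM2 level was 2.99, 2.68 and 3.02 times that of MDM4 in the control libraries and 6.81, 6.18 and 7.19 times in the HNRNPD siRNA libraries. The ratios of the groups did not overlap. That follows from MDM2 being higher and MDM4 lower in every HNRNPD siRNA library, so the ratio is no separate support. It gave exact permutation p = 0.1 (two-sided, the smallest that 3 against 3 allows, and 0.1 adjusted over the 4 ratios tried). These were MDM2 to MDM4, SESN2 to SESN1, SESN2 to SESN3 and PLK2 to PLK3, all chosen after the values were seen. PPM1D, which encodes the phosphatase WIP1 that switches off p53 signalling, rose 1.27-fold, from 10.2 to 12.95 CPM (edgeR adjusted p = 0.00387).

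TP53INP1, a stress protein that promotes p53 activation and autophagy, measured 9.95, 10.36 and 10.58 CPM in the controls and 5.14, 5.20 and 5.72 CPM after HNRNPD siRNA. Every HNRNPD siRNA library was near the middle of the distance from 0 to the controls, a 1.92-fold fall (log2 fold change -0.94, SE 0.11, edgeR adjusted p = 5.19e-07). RPS27L, a ribosomal protein S27 paralog that acts on MDM2, measured 57.6, 57.1 and 57.3 CPM in the controls and 48.0, 47.4 and 47.5 CPM after HNRNPD siRNA. The spread within each group was very small, and the 1.204-fold fall was called (edgeR adjusted p = 0.000819). CCNG1, which encodes cyclin G1, a recruiter of phosphatase 2A to MDM2, measured 20.6, 23.1 and 21.7 CPM against 17.3, 21.3 and 16.2 CPM. HNRNPD siRNA replicate 2 lay within the control range. CCNG1 was called (log2 fold change -0.25, edgeR adjusted p = 0.0307) but no longer so when control replicate 2 (adjusted p = 0.115) or 3 (0.0596) was left out, without HNRNPD siRNA replicate 1 (0.0834) or 3 (0.0832), with library totals only (0.0598) and with at least 1 CPM required in 3 libraries (0.0516). Its log2 fold change was -0.38 without HNRNPD siRNA replicate 2.

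Arrest and growth genes were split as well, and CDKN1A, the p21 gene that is the classic mediator of p53 arrest, did not pass the test. Of 8 genes in this group, BTG2, PLK2 and FBXW7 rose, ZMAT3 fell, and CDKN1A, GADD45A, GDF15 and PLK3 were not called. The shares were 37.5% higher and 12.5% lower, against 28.4% and 27.8% of all tested genes. BTG2, an antiproliferative factor that also recruits the CCR4-NOT deadenylase (chromosome 1, 203305491 to 203309602, plus strand), measured 11.9, 11.1 and 10.9 CPM in the controls and 35.7, 37.2 and 35.2 CPM after HNRNPD siRNA. The groups were well apart, at 11.3 ± 0.51 and 36.0 ± 1.04 CPM (SD, n = 3). This was a 3.19-fold rise (log2 fold change 1.67, SE 0.08, edgeR adjusted p = 2.27e-12), and its exons overlap no other gene of the table.

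CDKN1A (chromosome 6, 36676460 to 36687339, plus strand) measured 20.4, 17.5 and 19.7 CPM in the controls and 16, 17.4 and 17.8 CPM after HNRNPD siRNA. The groups overlapped, since control replicate 2 lay below HNRNPD siRNA replicate 3. The log2 fold change was -0.17 (SE 0.08, edgeR adjusted p = 0.0925). It was called as lower without control replicate 2 (log2 fold change -0.24, adjusted p = 0.0368) or HNRNPD siRNA replicate 3 (log2 fold change -0.21, adjusted p = 0.0423). The highest log2 fold change over all alternatives was -0.13, so no setting gave a rise.

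FBXW7, the substrate receptor of a ubiquitin ligase for cyclin E and MYC, measured 48.7, 48.3 and 48.4 CPM in the controls and 88.1, 85.4 and 91.6 CPM after HNRNPD siRNA. That was a 1.82-fold rise with no overlap (edgeR adjusted p = 6.78e-10). ZMAT3, an RNA-binding zinc finger protein induced by p53, measured 15.5, 13.6 and 15.4 CPM against 8.14, 10.4 and 9.09 CPM. All HNRNPD siRNA libraries were lower, a 1.61-fold fall (log2 fold change -0.68, SE 0.10, edgeR adjusted p = 1.61e-05). PLK2, a polo-like kinase of the stress response, rose 1.39-fold (log2 fold change 0.48, edgeR adjusted p = 0.000136), from 73.5 ± 0.94 to 102 ± 15.04 CPM (SD, n = 3), and its log2 fold change was 0.34 without HNRNPD siRNA replicate 3.

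GADD45A, a growth arrest and DNA damage protein, is described because 1 library stands out, which was seen after its values were known. It measured 42.1, 41.3 and 39.6 CPM in the controls and 41.9, 41.4 and 60.7 CPM after HNRNPD siRNA. Only replicate 3 lay above the controls, and interferon-stimulated genes were also highest in that library. The log2 fold change was 0.23 (SE 0.15, edgeR adjusted p = 0.238) with all libraries and 0.017 without replicate 3, while the fit with no filter on low counts called it higher (adjusted p = 0.0189).

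GDF15, a secreted stress cytokine of the TGF-beta superfamily, measured 5.42, 6.28 and 5.77 CPM in the controls and 3.82, 4.72 and 5.35 CPM after HNRNPD siRNA. All HNRNPD siRNA libraries were below the controls by a small margin, and the difference was not called (log2 fold change -0.33, edgeR adjusted p = 0.0528). It was called lower with DESeq2 size factors (0.048), no filter (0.0403), limma-voom (0.0484), the replicate block (0.0384) or without HNRNPD siRNA replicate 3 (0.00907). PLK3, another polo-like kinase, measured 4.60, 5.14 and 4.98 CPM against 3.49, 3.79 and 5.07 CPM. Replicate 3 of the HNRNPD siRNA group lay among the controls, and without it PLK3 was called lower (log2 fold change -0.43, adjusted p = 0.0154, against -0.25 and 0.167 with all libraries). Without HNRNPD siRNA replicate 1 its log2 fold change was -0.16.

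**Figure D2:**
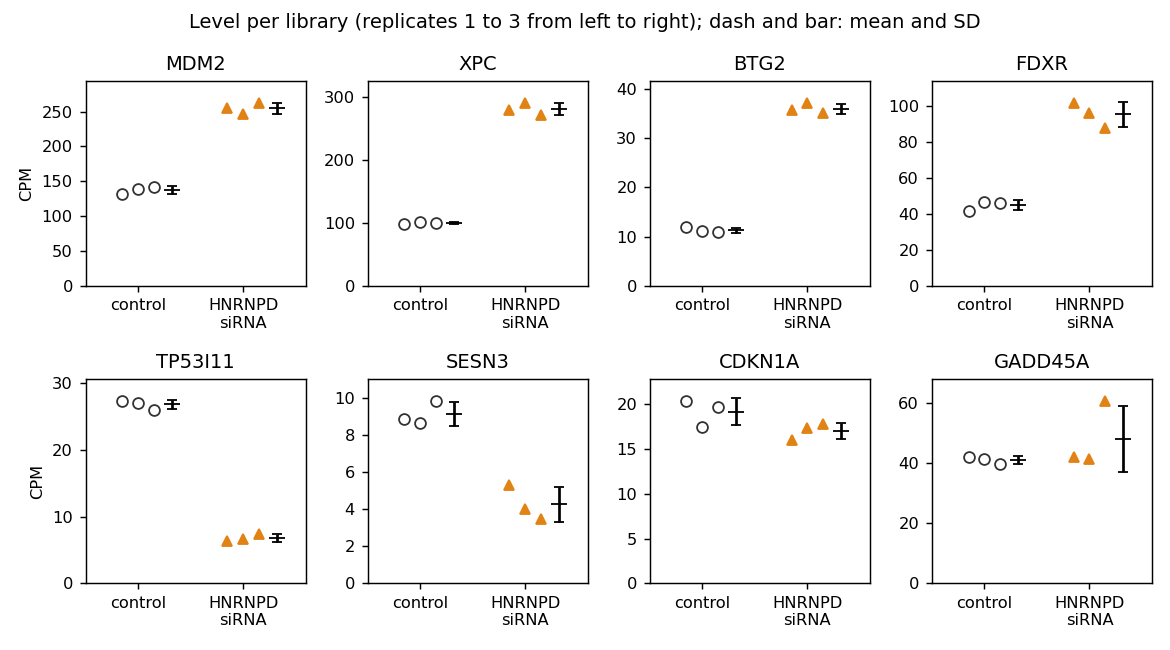
Level of 8 genes in each library (CPM, linear axis from 0); points are libraries in the order of replicates 1 to 3, and the dash with a bar is the mean and SD of 3. MDM2, XPC, BTG2 and FDXR are higher in every HNRNPD siRNA library, TP53I11 and SESN3 are lower, CDKN1A overlaps, and GADD45A is higher in HNRNPD siRNA replicate 3 alone.

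Of 4 DNA repair and nucleotide supply genes, XPC, DDB2 and POLH rose by edgeR's test. That was 75%, against 28.4% of all tested genes and 29.9% of the level-matched set. With only 4 genes, this share cannot show a trait of the group. The log2 fold change of RRM2B was above 0 as well. XPC, the lesion sensor of global nucleotide excision repair (chromosome 3, 14145147 to 14178783, minus strand), measured 98.3, 100.7 and 99.6 CPM in the controls and 280.1, 290.8 and 272.1 CPM after HNRNPD siRNA. It had the smallest p of the 34 genes and rose 2.82-fold (log2 fold change 1.497, SE 0.06, edgeR adjusted p = 3.31e-13). Genes on the opposite strand overlap a fraction of 0.304 of its exonic bases, AC093495.4 the most. Per 1000 bases AC093495.4 rose from 5.08 to 12.0 CPM, RP11-434D12.1 from 8.16 to 14.6 CPM and LSM3 from 24.99 to 29.6 CPM. XPC rose from 20.7 to 58.6 CPM on this scale. No source used here gives the strand setting of the counting, so counts on the shared bases cannot be assigned with certainty.

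DDB2, the damage sensor that hands ultraviolet lesions to XPC, measured 19.6, 19.4 and 20.3 CPM in the controls and 37.6, 38.2 and 35.9 CPM after HNRNPD siRNA. The groups were well apart, a 1.88-fold rise (log2 fold change 0.91, SE 0.07, edgeR adjusted p = 2.47e-09). DDB2 was the only one of the 34 genes with a pair of p53 half-sites in a promoter window that had no mismatch to the consensus. Its first base is base 6 of the transcript, and it is shown for that reason, with the half-sites in capitals and the spacer base in lower case (RefSeq, GRCh38.p14, chr11:47214979-47214999, plus strand).
DDB2 site: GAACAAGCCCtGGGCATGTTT

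POLH, the DNA polymerase eta that copies past ultraviolet lesions, measured 11.0, 9.94 and 8.99 CPM in the controls and 13.9, 15.7 and 14.2 CPM after HNRNPD siRNA. It rose 1.46-fold without overlap (edgeR adjusted p = 0.000107). RRM2B, the p53-inducible subunit of ribonucleotide reductase, measured 32.4 ± 0.59 and 35.8 ± 1.24 CPM (SD, n = 3). All HNRNPD siRNA libraries lay above the controls, and the difference was not called (log2 fold change 0.15, edgeR adjusted p = 0.0639), but it was with at least 1 CPM required in 3 libraries (0.0267) and with counts divided by 2 (0.0461).

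In metabolism and redox control, the sestrins, stress-induced inhibitors of mTORC1, went in opposite directions. Of the 7 genes in this group, SESN2, FDXR and SPATA18 rose, SESN1 and SESN3 fell, and TP53I3 and ACER2 were not called. The shares were 42.9% higher and 28.6% lower, against 28.4% and 27.8% of all tested genes. FDXR, the mitochondrial ferredoxin reductase (chromosome 17, 74862497 to 74873031, minus strand), measured 41.8, 46.7 and 46.3 CPM in the controls and 101.8, 96.4 and 88.0 CPM after HNRNPD siRNA. This was a 2.12-fold rise (log2 fold change 1.09, SE 0.07, edgeR adjusted p = 2.36e-10).

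SPATA18, which encodes the mitochondrial quality control protein Mieap, measured 1.34, 1.49 and 2 CPM in the controls and 5.66, 5.63 and 4.12 CPM after HNRNPD siRNA. Its mean over all libraries was the lowest of the 34 genes, and every HNRNPD siRNA library was above every control. The rise was 3.18-fold (log2 fold change 1.67, SE 0.19, edgeR adjusted p = 4.17e-07). SESN3 measured 8.90, 8.68 and 9.87 CPM in the controls and 5.30, 4.01 and 3.50 CPM after HNRNPD siRNA, a 2.15-fold fall without overlap (log2 fold change -1.10, SE 0.14, edgeR adjusted p = 2.12e-06).

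SESN1 measured 8.03, 7.89 and 8.63 CPM in the controls and 6.07, 7.64 and 4.37 CPM after HNRNPD siRNA. The groups did not overlap, but HNRNPD siRNA replicate 2 was close to the controls. SESN1 was called (log2 fold change -0.44, edgeR adjusted p = 0.0251) but missed the threshold without control replicate 1 (0.0589), 2 (0.0511) or 3 (0.0771), or without HNRNPD siRNA replicate 1 (0.0553) or 3 (0.0739), where the log2 fold change was -0.26. SESN2 rose 1.34-fold, from 8.80 ± 0.44 to 11.8 ± 0.38 CPM (SD, n = 3; edgeR adjusted p = 0.000901). Per 1000 bases, SESN2 was 2.71 to 3.27 times the level of SESN3 in the controls and 7.01 to 9.97 times after HNRNPD siRNA. This pair was chosen after the values were seen. Its ratios had to separate, since SESN2 was higher and SESN3 lower in every HNRNPD siRNA library. TP53I3, a quinone oxidoreductase, was at 14.8 and 13.3 CPM (log2 fold change -0.15, edgeR adjusted p = 0.231). Without HNRNPD siRNA replicate 3 the log2 fold change of TP53I3 was -0.036 (adjusted p = 0.753). ACER2, an alkaline ceramidase, was at 3.40 and 4.07 CPM (log2 fold change 0.26, edgeR adjusted p = 0.131).

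The cell death, autophagy and membrane genes held the largest fall of the 34, that of TP53I11. Of 9 genes, AEN, EDA2R and PERP rose, NINJ1 and TP53I11 fell, and APAF1, PHLDA3, TRIAP1 and DRAM1 were not called. The shares were 33.3% higher and 22.2% lower, against 28.4% and 27.8% of all tested genes. TP53I11, a p53-inducible membrane protein of the endoplasmic reticulum also named PIG11 (chromosome 11, 44885903 to 44951306, minus strand), measured 27.4, 27.1 and 26.1 CPM in the controls and 6.32, 6.63 and 7.42 CPM after HNRNPD siRNA. The groups were far apart, at 26.9 ± 0.71 and 6.79 ± 0.57 CPM (SD, n = 3). This was a 3.95-fold fall (log2 fold change -1.98, SE 0.09, edgeR adjusted p = 1.86e-12), and its log2 fold change stayed between -2.06 and -1.94 over the 15 alternatives.

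AEN, an exonuclease of the nucleus that promotes apoptosis (chromosome 15, 88621296 to 88632282, plus strand), measured 34.3, 35.5 and 36.1 CPM in the controls and 70.6, 79.9 and 93.4 CPM after HNRNPD siRNA. All HNRNPD siRNA libraries were above the controls and spread more widely than they did. The rise was 2.31-fold (log2 fold change 1.21, SE 0.08, edgeR adjusted p = 4.39e-09), and the log2 fold change was 1.09 without HNRNPD siRNA replicate 3. Its upstream window held adjacent p53 half-sites with 2 mismatches, beginning 34 bases before the start, and is shown with that pair in capitals (RefSeq, GRCh38.p14, chr15:88621090-88621339, plus strand).
AEN upstream window: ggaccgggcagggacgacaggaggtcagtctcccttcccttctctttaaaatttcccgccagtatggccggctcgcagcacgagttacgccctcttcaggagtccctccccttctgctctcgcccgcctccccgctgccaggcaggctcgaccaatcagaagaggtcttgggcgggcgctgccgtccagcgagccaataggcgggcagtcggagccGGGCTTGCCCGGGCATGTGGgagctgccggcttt

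EDA2R, a receptor for ectodysplasin A2, measured 34.5, 34.6 and 34.95 CPM in the controls and 53.8, 49.0 and 52.1 CPM after HNRNPD siRNA, a 1.49-fold rise without overlap (edgeR adjusted p = 4.3e-07). PERP, a desmosomal membrane protein, rose 1.40-fold, from 36.5 ± 2.29 to 51.2 ± 2.78 CPM (SD, n = 3; adjusted p = 7.82e-06). NINJ1, which drives rupture of the plasma membrane in dying cells, fell 1.57-fold, from 6.09 ± 0.93 to 3.88 ± 0.54 CPM (SD, n = 3; adjusted p = 0.00099). PHLDA3, an inhibitor of AKT, measured 24.7, 21.5 and 23.7 CPM against 23.7, 27.4 and 27.2 CPM. The groups overlapped, and it was called higher without HNRNPD siRNA replicate 1 (adjusted p = 0.0309) and with at least 1 CPM required in 3 libraries (0.0451), against 0.0837 with all libraries. Its log2 fold change was 0.17 with all libraries and 0.11 without control replicate 2 (adjusted p = 0.35), and RP11-134G8.10 overlaps a fraction of 0.191 of its exonic bases. APAF1, the scaffold of the apoptosome, TRIAP1, an inhibitor of apoptosis, and DRAM1, a lysosomal promoter of autophagy, had log2 fold changes of -0.15, -0.05 and -0.04.

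**Figure D3:**
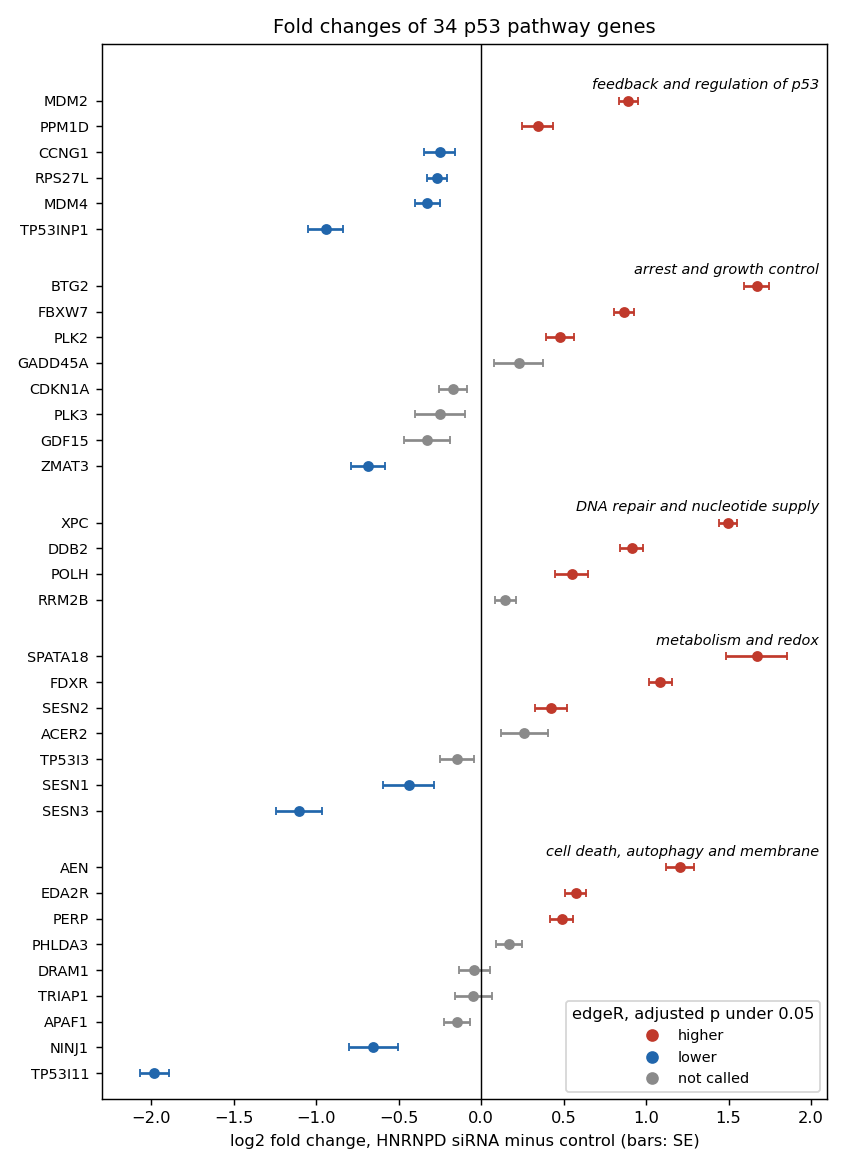
Log2 fold change of each of the 34 genes, HNRNPD siRNA minus control, with its SE, by function; colours mark the edgeR call at an adjusted p under 0.05. Values run from -1.98 for TP53I11 to 1.67 for BTG2 and SPATA18, and the repair group, of only 4 genes, has no value below 0.

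A search of promoter windows from RefSeq (GRCh38.p14, from 250 bases before to 50 after a start) looked for the best pair of p53 consensus half-sites with a spacer of at most 13 bases. The consensus reads the same on both strands, so the search covers both. Windows were found for 30 of the 34 genes, not for TP53INP1, PHLDA3, RRM2B and GADD45A. A pair with at most 2 mismatches was present for 6 of the 30, against 9.53% of 27303 genes with a window, and with a spacer of at most 1 base for 3 of the 30 (MDM2, DDB2 and AEN), against 1.69%. The latter 3 all rose, where 41.2% of the 34 genes did, and 3 genes are too few to tie a match to a direction. Of the other 3, FDXR rose, and CCNG1 and SESN1 fell. Their pairs are printed to show the longer spacers, in lower case between the half-sites in capitals (FDXR chr17:74872996-74873025, minus strand, CCNG1 chr5:163437529-163437557, plus strand, and SESN1 chr6:109095058-109095088, minus strand).
FDXR site: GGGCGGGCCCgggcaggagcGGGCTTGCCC
CCNG1 site: GAAAATGCCCccttctcgcGAGAAAGCCC
SESN1 site: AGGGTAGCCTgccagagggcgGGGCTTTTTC

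XPC, BTG2 and TP53I11, among the genes with the largest changes, had no pair with fewer than 3, 4 and 4 mismatches in these windows. A match is a description of the letters, and p53 sites can lie outside such windows, as the known distal sites of CDKN1A do.

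Because HNRNPD binds AU-rich sequence, the 3' UTRs of the 34 genes were searched in GENCODE 29 transcripts for the pentamer AUUUA and the nonamer UUAUUUAUU, on the transcript strand (the nonamer contains the pentamer). The nonamer was present in 8 of 34, or 23.5%, against 7.82% of 13390 tested protein-coding genes. The 3' UTRs of the 34 were longer, with a median of 1614 bases against 973.5, and held a median of 2.099 pentamers per 1000 bases against 1.49. By call, 4 of the 14 genes that rose, 1 of the 9 that fell and 3 of the 11 not called had the nonamer. Among all tested protein-coding genes it was present in 8.32% of those higher, 7.65% of those lower and 7.57% of those not called. Median 3' UTR lengths of the 34 genes by call, in the same order, were 2076, 2536 and 961 bases. The 8 genes with the nonamer were MDM2, PPM1D, PLK2 and AEN (higher), TP53INP1 (lower), and GDF15, PLK3 and RRM2B (not called). For 6 of them the first nonamer is shown in capitals with its flanks, as RNA (GRCh38, MDM2 chr12:68844762-68844790, PPM1D chr17:60664780-60664808, AEN chr15:88631182-88631210, GDF15 chr19:18389054-18389082 and PLK3 chr1:44805900-44805928, plus strand, and PLK2 chr5:58454066-58454094, minus strand).
MDM2 site: uauuuuauuuUUAUUUAUUuuuugagacg
PPM1D site: ugaguguauuUUAUUUAUUuauuauuuug
PLK2 site: aauaaacuuuUUAUUUAUUacagcccaaa
AEN site: ugccugaccuUUAUUUAUUuauuaacagc
GDF15 site: uauaagucugUUAUUUAUUauuaauuuau
PLK3 site: uggaccacuuUUAUUUAUUgucagacacu

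GDF15 had the densest pentamers of the 34, at 20.7 per 1000 bases of a 241-base 3' UTR, followed by PLK3 at 9.62. Neither was called, though alternatives given above called each of them lower. RRM2B (6.06, not called) and RPS27L (5.59, lower) came next. Among genes that changed at least 2-fold, TP53I11 held 0.789 per 1000 bases, BTG2 0.924 and XPC 1.26. In the same set AEN held 2.01, SPATA18 2.91 and SESN3 3.75, and FDXR held none. DDB2, FDXR, NINJ1, SESN2 and TP53I3 held no pentamer, and among these 5 DDB2, FDXR and SESN2 rose and NINJ1 fell.

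Per 1000 exonic bases, the control levels of the 34 genes ran from 0.326 CPM for SPATA18 to 20.7 CPM for XPC. GADD45A (19.8), PLK2 (15.4), FDXR (12.5) and MDM2 (10.3) came next on this scale. After HNRNPD siRNA the order at the top was XPC (58.6), FDXR (26.5), GADD45A (23.2), PLK2 (21.5) and MDM2 (19.2). CDKN1A stood at 6.30 and 5.59 CPM per 1000 bases in the 2 groups.

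Of 25 upstream regulators of p53, a list that also holds its family members TP63 and TP73, 24 could be tested, 7 were higher and 11 lower. These 29.2% and 45.8% stood against 28.4% and 27.8% of all tested genes and 29.9% and 36.8% of the level-matched set, and the 75% called in either direction against 56.1% and 66.7%. Their median on the log2 scale was -0.06, against the median of -0.05 in the level-matched set. That set was matched to the level range of the p53 pathway and target genes described above, not to this list. NPM1, RPL5, HNRNPK, RPL23 and USP7 lay above its range, and TP63 and TP73 below. CDKN2A had 0 to 16 counts per library and was not tested.

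In that list the damage kinase gene ATM rose 1.33-fold, from 68.7 ± 2.38 to 91.6 ± 3.58 CPM (SD, n = 3), and the checkpoint kinase gene CHEK2 1.27-fold. KAT5, an acetyltransferase that acts on p53 and ATM, rose 1.56-fold, and RNASEH2C overlaps a fraction of 0.299 of its exonic bases. USP7, a deubiquitinase of MDM2 and p53, fell 1.36-fold, from 315 ± 3.23 to 232 ± 3.37 CPM. RPL23, a ribosomal protein that binds MDM2, fell 1.58-fold, from 466 ± 50.4 to 295 ± 32.03 CPM, and its reads may be shared with processed copies in the genome.

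Of 26 other p53 target genes, 25 could be tested, 15 were higher and 4 lower, and the median change on the log2 scale was 0.34. These shares were 60% and 16%, against 28.4% and 27.8% of all tested genes and 29.9% and 36.8% of the level-matched set. In all, 76% of the list was called, against 56.1% and 66.7%. The level-matched set was not matched to this list. TNFRSF10C, which was not called, and PRDM1, which was called higher, lay below its range. Among those higher, other genes overlap a fraction of 0.771 of the exonic bases of GLS2 and 0.166 of those of TNFRSF10A. SPRYD4, which overlaps GLS2 the most, rose by a like amount (log2 fold changes 1.05 and 1.01). BBC3, which encodes the pro-apoptotic protein PUMA, measured 3.97, 4.83 and 4.79 CPM in the controls and 11.9, 12.8 and 19.5 CPM after HNRNPD siRNA, a 3.25-fold rise (edgeR adjusted p = 3.24e-05). Its highest value was in HNRNPD siRNA replicate 3. BAX rose 1.28-fold and the death receptor gene FAS 2.01-fold, and ACTA2 overlaps a fraction of 0.101 of the exonic bases of FAS. PMAIP1, which encodes NOXA, measured 12.09, 13.3 and 13.9 CPM against 14.2, 15.7 and 28.6 CPM and was not called (adjusted p = 0.197), again with HNRNPD siRNA replicate 3 far above the rest.

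PML, the organiser of nuclear bodies and a gene also known to be induced by interferon, rose 5.75-fold, from 5.59 ± 0.61 to 32.2 ± 2.09 CPM (SD, n = 3). SFN, which encodes the cell cycle inhibitor 14-3-3 sigma, fell 2.43-fold, from 97.6 ± 7.90 to 40.1 ± 4.60 CPM, and the decoy receptor gene TNFRSF10D fell 2.11-fold. Adjusted p-values of PML, SFN and TNFRSF10D were 2.52e-13, 9.49e-10 and 1.67e-08. TRIM22, likewise interferon-inducible, had the largest log2 fold change of the list, 5.28, and is named after its value was seen.

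Of 20 cell cycle genes known to be repressed through p21 and the DREAM complex, 13 were lower and 2 higher, and the median change on the log2 scale was -0.31. That was 65% lower and 10% higher, where 27.8% and 28.4% of all tested genes and 36.8% and 29.9% of the level-matched set were so called. The latter set was not matched to the levels of this list, and MKI67 lay above its range. Without control replicate 1 or 3 the number higher was 1. The helicase subunit MCM2 fell 2.11-fold, from 91.3 ± 3.28 to 43.3 ± 1.14 CPM (SD, n = 3), and MCM5 1.84-fold. The proliferation marker MKI67 fell 1.54-fold and cyclin B2 (CCNB2) 1.81-fold. The part of CDKN1A, which was not called, in these falls was not tested.

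**Figure D4:**
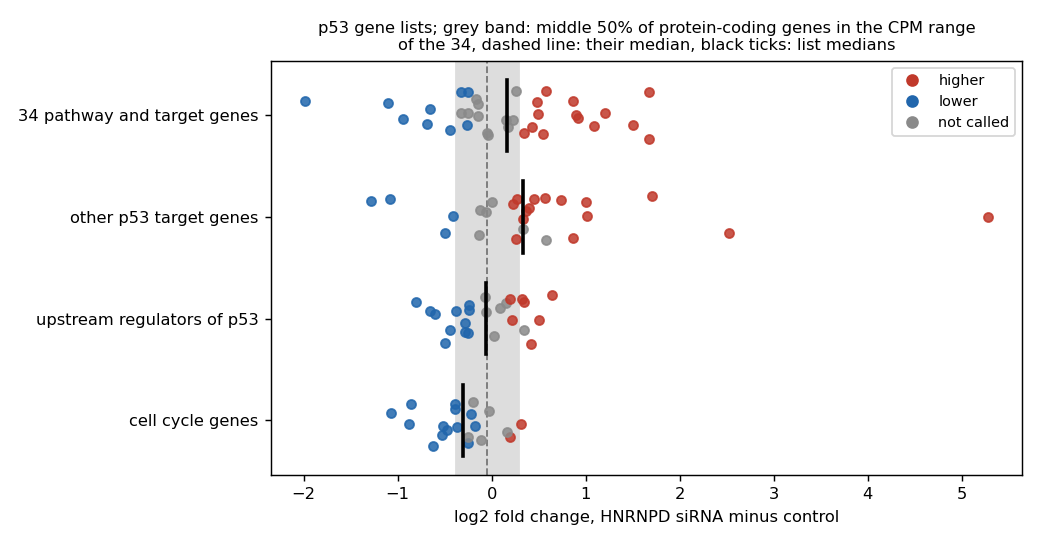
Log2 fold changes (HNRNPD siRNA minus control) of the tested genes of 4 lists; each point is a gene, coloured by its edgeR call, and black ticks are list medians (0.16, 0.34, -0.06 and -0.31 from top to bottom). The grey band is the middle 50% of protein-coding genes matched to the level range of the top list alone, from -0.38 to 0.29. The point at 5.28 is TRIM22.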

How the data were processed

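RNA was sequenced from 3 A549 libraries with control siRNA and 3 with HNRNPD siRNA. The authors deposited whole-number read counts per gene, per the file headers. Bowtie 0.12.2 and 2 builds, mm8 and GRCh38, appear in the submitters' processing notes, which do not say what each was used for. Sources used here name no counting program, annotation version or strand setting. Gene positions are the table's own. GENCODE 29 (GRCh38) matched 35495 of 56303 rows by name and position, including all 34 genes, and gave gene types. Of counts from 1 to 20, 66.2% to 69.5% per library were even, and the cause was not tested; an alternative with counts divided by 2 was run.

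edgeR 4.0.16 (R 4.3.3) was fitted to all genes with filterByExpr, TMM scaling, the robust quasi-likelihood test and group as the only term, with Benjamini-Hochberg adjustment over 20465 genes. SEs come from the log2 fold change and F. The scripts were tested on simulated data. Alternatives used limma 3.58.1 and DESeq2 1.42.0 and others named in the closing section. Chi-square per degree of freedom between replicates was 6.63 to 27.67, so replicates differed by more than counting error. This value cannot tell separate cultures from repeated preparations of the same RNA. The table has 0 columns of other samples.

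The members and lists were chosen with earlier results of these data known, so no test is given over a list. Library values are printed for HNRNPD, MDM2, CDKN1A, the 3 genes per function with the smallest p and those whose call changes when 1 library is left out. From each other list the 4 genes with the smallest p are named, with ATM, CHEK2, BAX, BBC3, PMAIP1 and FAS. An item that the rule also named is not reported here.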

Additional observations from a re-analysis of the deposited data

How the results depend on the processing

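Over 15 alternatives, the 34 genes gave 14 to 16 higher and 7 to 10 lower. Their median log2 fold change ran from 0.064 to 0.19 when each library was left out in turn, with the lowest value without HNRNPD siRNA replicate 3; the cause was not tested. The number of higher cell cycle genes ran from 1 to 3 over the same fits. Of 510 values of single genes, 483 kept direction and call, 11 lost the call, 13 gained it and 3 changed sign. The changes of sign were those of TRIAP1 without control replicate 1 (log2 fold change 0.0374) or HNRNPD siRNA replicate 3 (0.0062), and of DRAM1 without HNRNPD siRNA replicate 2 (0.0244), where leaving out each library in turn gave -0.126 to 0.0374 for TRIAP1 and -0.151 to 0.0244 for DRAM1. Replicate numbers are not said to pair the libraries. The correlations of same-numbered deviations were 0.043, 0.027 and 0.018, the first of them the highest of any pair. Control replicate 2 correlated best with HNRNPD siRNA replicate 3 (0.032). With 3 libraries per group, such values cannot decide whether the libraries were paired. With the replicate block, 14 of the 34 were higher and 10 lower, at a median log2 fold change of 0.16, and 5792 of all genes were higher and 5737 lower; among the 34 genes it changed the call of GDF15 alone. With no filter on low counts, 38431 genes were tested and 30.3% called.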
